A study of Mus musculus with 6 samples.

Results

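Imprinted genes are expressed mainly from the copy inherited from 1 parent. The 2 copies are told apart by DNA methylation of 1 of them at an imprinting control region, which at some genes is the expressed copy. Here 39 listed imprinted genes from 18 loci were followed in ectopic endometriosis lesions of mice, 22 expressed from the paternal copy and 17 from the maternal copy. They were chosen by name, as genes of known imprinted loci, and all 39 were found by Ensembl gene ID among the 56884 genes of the count table. Of these, 33 had enough reads to be tested, against 18177 genes of the whole table.

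The study asked what loss of Dnmt3a, a de novo DNA methyltransferase, does to lesions grown from donor endometrium. RNA was sequenced from 3 lesions of Dnmt3a f/f donors (WT) and 3 lesions of Dnmt3a f/f:PR-Cre/+ donors (KO), 1 library per lesion, named here WT1 to WT3 and KO1 to KO3. Donors were females of 8 weeks treated with estradiol, and recipients were syngeneic wild-type C57BL/6J females of the same age carrying an estradiol pellet. The labels date the lesions to 4 weeks and describe injected fragments, whereas the study's methods describe sutured fragments and an earlier day of collection. Both donor groups carry the floxed alleles. PR-Cre removes Dnmt3a in donor cells that express, or descend from cells that expressed, the progesterone receptor, and every recipient cell that enters a lesion keeps the gene intact. The RNA is of the whole lesion, so fewer cells of a type and less RNA per cell cannot be told apart.

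DNMT3A and its partner DNMT3L write imprints in the germ cells of the parents, mostly in the oocyte and at a few loci in sperm. After fertilization the marks are copied at each cell division by DNMT1 with UHRF1, and are protected by the zinc finger proteins ZFP57 and ZFP445 with TRIM28. PR-Cre acts long after the germline marks are set. At many loci a long non-coding RNA of 1 parental copy, such as Airn or Kcnq1ot1, silences protein-coding neighbours on the same chromosome. The counts do not separate the parental copies, so parental origin was not measured, and maternal or paternal below means the copy known to be expressed.

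Promoter sequence shows how unevenly the sites that DNA methyltransferases act on, CG dinucleotides, are spread over these genes. RefSeq windows from 250 bases before to 50 bases after a start site (GRCm38.p6) were found for 31 of the 39 genes, 44 windows in all. The median was 14.0 CG per window, against 7.0 over all 32851 windows, and 43 of the 44 held at least 1 CG, as did 94.6% of all windows. The 4 windows below are shown because their genes have an unadjusted p under 0.05 below. Ascl2, the only other such gene with a window (23 CG), is not printed, since it had few reads. They are Dio3 (chr12:110278980-110279279, plus strand, 25 CG), Nap1l5 (chr6:58907077-58907376, minus strand, 17 CG), Meg3 (chr12:109540746-109541045, plus strand, 13 CG, the richer of 2 windows, the other having 1 CG) and Airn (chr17:12741061-12741360, plus strand, 3 CG), with each CG in capitals.
Dio3: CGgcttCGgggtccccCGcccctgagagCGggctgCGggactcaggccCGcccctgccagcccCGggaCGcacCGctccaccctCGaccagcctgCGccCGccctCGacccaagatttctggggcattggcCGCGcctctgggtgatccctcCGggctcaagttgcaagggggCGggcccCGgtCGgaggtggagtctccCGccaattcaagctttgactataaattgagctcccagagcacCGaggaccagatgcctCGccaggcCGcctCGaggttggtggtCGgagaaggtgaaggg
Nap1l5: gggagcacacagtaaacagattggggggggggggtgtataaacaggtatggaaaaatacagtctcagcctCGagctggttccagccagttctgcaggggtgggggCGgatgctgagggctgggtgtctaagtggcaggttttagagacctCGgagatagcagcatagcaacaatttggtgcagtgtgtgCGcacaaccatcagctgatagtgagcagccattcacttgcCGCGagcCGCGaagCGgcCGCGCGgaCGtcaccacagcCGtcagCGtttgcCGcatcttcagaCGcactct
Meg3: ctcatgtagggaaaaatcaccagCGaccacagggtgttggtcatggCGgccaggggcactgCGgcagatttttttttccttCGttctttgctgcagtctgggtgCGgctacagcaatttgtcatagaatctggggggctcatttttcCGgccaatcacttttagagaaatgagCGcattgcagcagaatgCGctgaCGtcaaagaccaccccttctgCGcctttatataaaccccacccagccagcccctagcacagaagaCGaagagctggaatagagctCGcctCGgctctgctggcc
Airn: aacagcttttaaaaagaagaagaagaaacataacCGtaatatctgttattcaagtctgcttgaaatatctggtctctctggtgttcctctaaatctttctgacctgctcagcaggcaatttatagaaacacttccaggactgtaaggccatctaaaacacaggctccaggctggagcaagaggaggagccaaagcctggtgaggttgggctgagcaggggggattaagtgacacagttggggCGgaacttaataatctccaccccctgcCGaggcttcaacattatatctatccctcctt
At least as many CG were held by 18.4% of all windows for Dio3, 31.4% for Nap1l5, 37.9% for Meg3 and 76.7% for Airn. Among the member windows the lowest number was 0, at Rian, and the highest was 48, at 1 of the 2 windows of Ppp1r9a. The windows of Peg3 and Usp29, transcribed away from each other, shared 263 bases. Methylation itself was not measured in these lesions, and a CG count is a description of the reference sequence.

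The libraries held between 45370342 and 57239184 counts. Of gene counts between 1 and 20, 89.2% to 90.6% were even in each library, as they are when both reads of a pair are counted, so the independent molecules may be fewer than the counts. How pairs were counted is not given in the sources used here. Levels are given in CPM (counts scaled to library size with edgeR's TMM factors), where 3 counts correspond to between 0.0526 and 0.0674 CPM. Dnmt3a was measured at 52.7, 43.9 and 51.7 CPM in WT1, WT2 and WT3 and at 30.3, 33.5 and 36.2 CPM in KO1, KO2 and KO3. Its level was lower in every KO lesion (log2 fold change −0.57, SE 0.14), with an adjusted p of 0.321 in edgeR's quasi-likelihood test and 0.00685 in DESeq2. Some libraries stood apart. The summed level of 8 skeletal muscle fibre genes was 32406 CPM in WT1 and 34376 CPM in WT3, against 3.62 to 14.1 CPM in the other 4 lesions. In WT3 8 pancreatic acinar genes summed to 5934 CPM, against at most 16.2 CPM elsewhere, and in WT2 8 neutrophil genes summed to 9847 CPM, against at most 479 CPM. Among KO lesions, KO3 had the highest sums for adipocyte, endothelial and macrophage genes. Immune markers were lower in KO for T cells, with 8 genes summing to 36.9 to 99.7 CPM in WT and 8.03 to 27.6 CPM in KO and 7 of the 8 not overlapping. Among 8 B and plasma cell genes 5 were lower in every KO lesion, while Xbp1 was at 0.38 (log2 fold change). Their sums overlapped, at 332 to 911 CPM in WT and 367 to 479 CPM in KO. Among 8 smooth muscle genes 5 were higher in every KO lesion, while Des was at −2.16. Their sums overlapped too, at 1119 to 4957 CPM in WT and 2303 to 4041 CPM in KO. Of all genes tested, 8.74% were lower and 10.7% higher in every KO lesion. Stroma markers summed to 765 to 979 CPM in WT and 994 to 1301 CPM in KO. Of these 8 genes 4 were higher in every KO lesion, while Pdgfra and Tcf21 were at −0.86 and −0.46 (log2 fold change). Of 8 epithelial markers all were read in every lesion except Foxa2, which had no read in KO3. The part of cell makeup in the values below was not tested.

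The imprinted genes did not move as a block. Of the 33 tested, 20 were higher and 13 lower in KO by point estimate, with a median log2 fold change of 0.07, against 0.01 for all 18177 genes, of which 51.4% were higher. None passed an adjusted p of 0.05 in edgeR, where 0.0055% of all genes did, and the adjusted p of the 33 ran from 0.321 to 0.993. At the threshold the study used, an unadjusted p under 0.05 with at least a doubling or halving, 2 members were higher in KO (Ascl2, Nap1l5) and 4 lower (H19, Meg3, Peg10, Airn). Over all genes 3.1% were higher and 5.85% lower by that rule. At an unadjusted p under 0.05 with no limit on the fold, Dio3 joined those higher, giving 3 members higher and 4 lower, against 6.55% and 8.16% of all genes. The counts at the study's threshold moved when single lesions were left out. The number lower was 1 without KO1 (2.9% of all genes in that analysis), 2 without KO2 (3.48%) and 8 without KO3 (8.66%). The number higher was 0 without WT1 (2.74%), 0 without WT3 (2.23%), 1 without WT2 (2.1%) and 1 without KO3 (5.36%). Without both WT1 and WT3, 1 member was lower (Meg3) and 1 higher (Asb4), against 8.04% and 3.15% of all genes. There only WT2 remained, assumed to vary like the KO lesions, so those calls rest on 1 WT lesion.

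**Figure D1:**
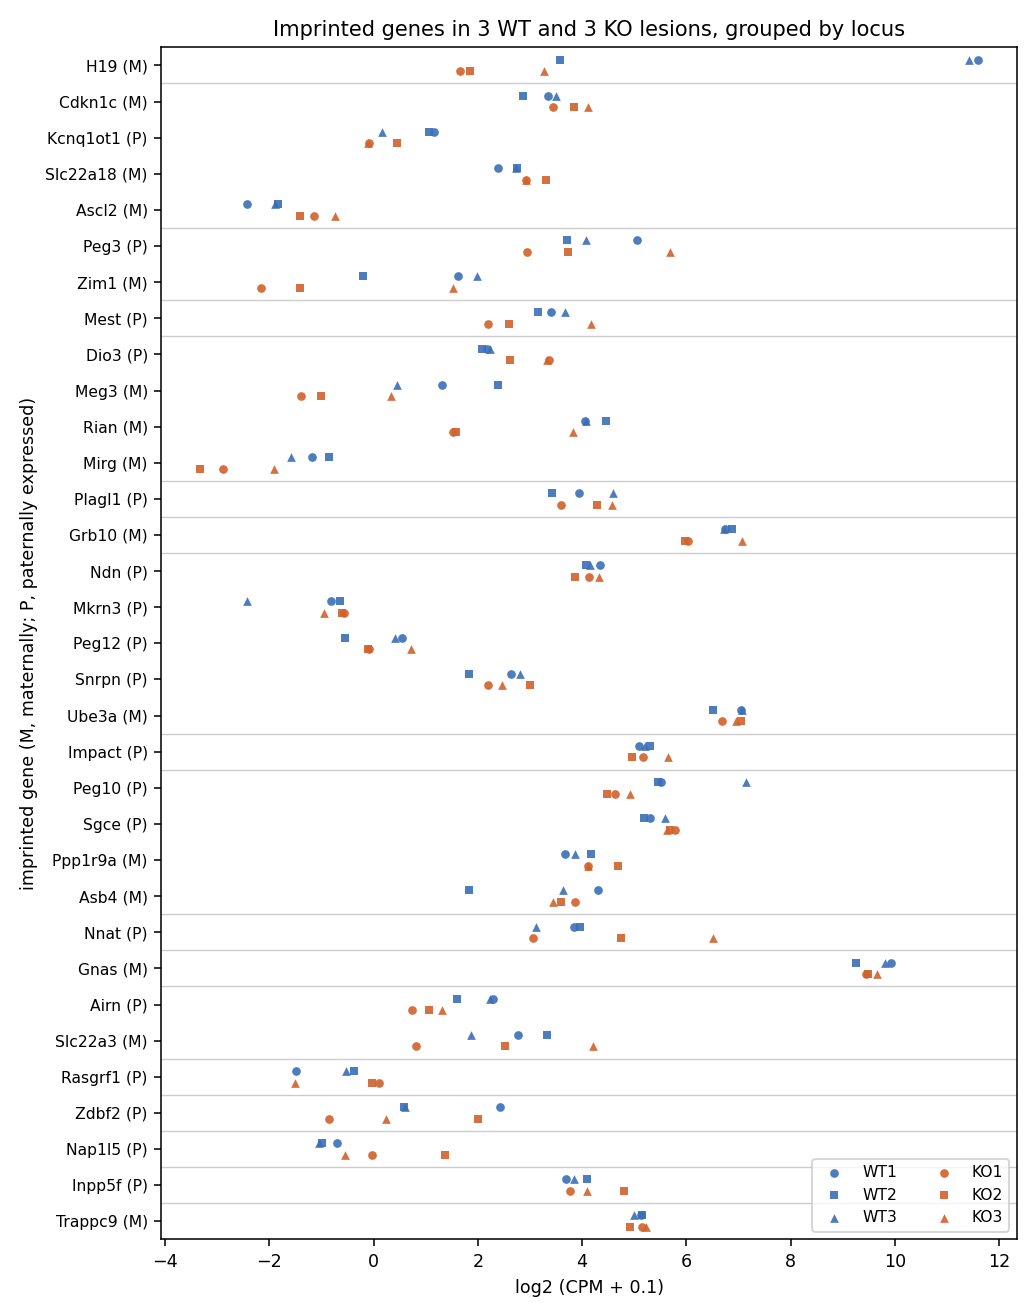
Levels of the 33 tested imprinted genes in each lesion, as log2 of CPM plus 0.1, with 1 row per gene, lines between loci, WT in blue and KO in orange, and the symbols marking replicate numbers. H19 spans more than any other gene, from 3.05 to 3094 CPM, while Ube3a, Ndn and Trappc9 lie in nearly the same place in all 6 lesions.

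With 3 lesions per group an exact permutation test on 1 gene cannot give a p below 0.1, and that value is reached only where the groups do not overlap. Every KO lesion was above every WT lesion for 5 tested members (Slc22a18, Ascl2, Dio3, Sgce, Nap1l5), against 10.7% of all genes. Every WT lesion was above every KO lesion for 6 (H19, Meg3, Rian, Mirg, Peg10, Airn), against 8.74%. DESeq2, which the labels name among the study's tools, gave an adjusted p under 0.05 to 1 member higher in KO (Dio3) and 3 lower (H19, Peg10, Airn). By the same rule it called 2.23% of all genes higher and 4.04% lower. With voom weights in limma 0 members and 12 of all genes passed. At the study's threshold DESeq2 gave 3 members higher and 6 lower, against 3.77% and 7.43% of all genes.

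Neither parental class moved 1 way. Among the 18 tested paternally expressed genes 12 were higher and 6 lower in KO by point estimate, with a median log2 fold change of 0.13. Among the 15 maternally expressed genes 8 were higher and 7 lower, with a median of 0.00. The genes imprinted in most tissues gave other values on the maternal side. The 6 such genes had a median of −1.86, with H19, Meg3, Rian and Mirg lower and Cdkn1c and Slc22a18 higher, while the other maternally expressed genes are imprinted only in placenta, brain, some tissues or some transcripts. The 15 broadly imprinted paternal genes had a median of 0.09.

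The split by which parent's control region carries the methylation follows the same few genes. At the 3 loci with a region methylated on the paternal copy, 6 genes were tested, with a median of −1.86 and 4 of the 6 lower in KO. At loci methylated on the maternal copy 26 genes were tested, with a median of 0.10, 18 higher and 8 lower. These medians over small lists carry no test.

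**Figure D2:**
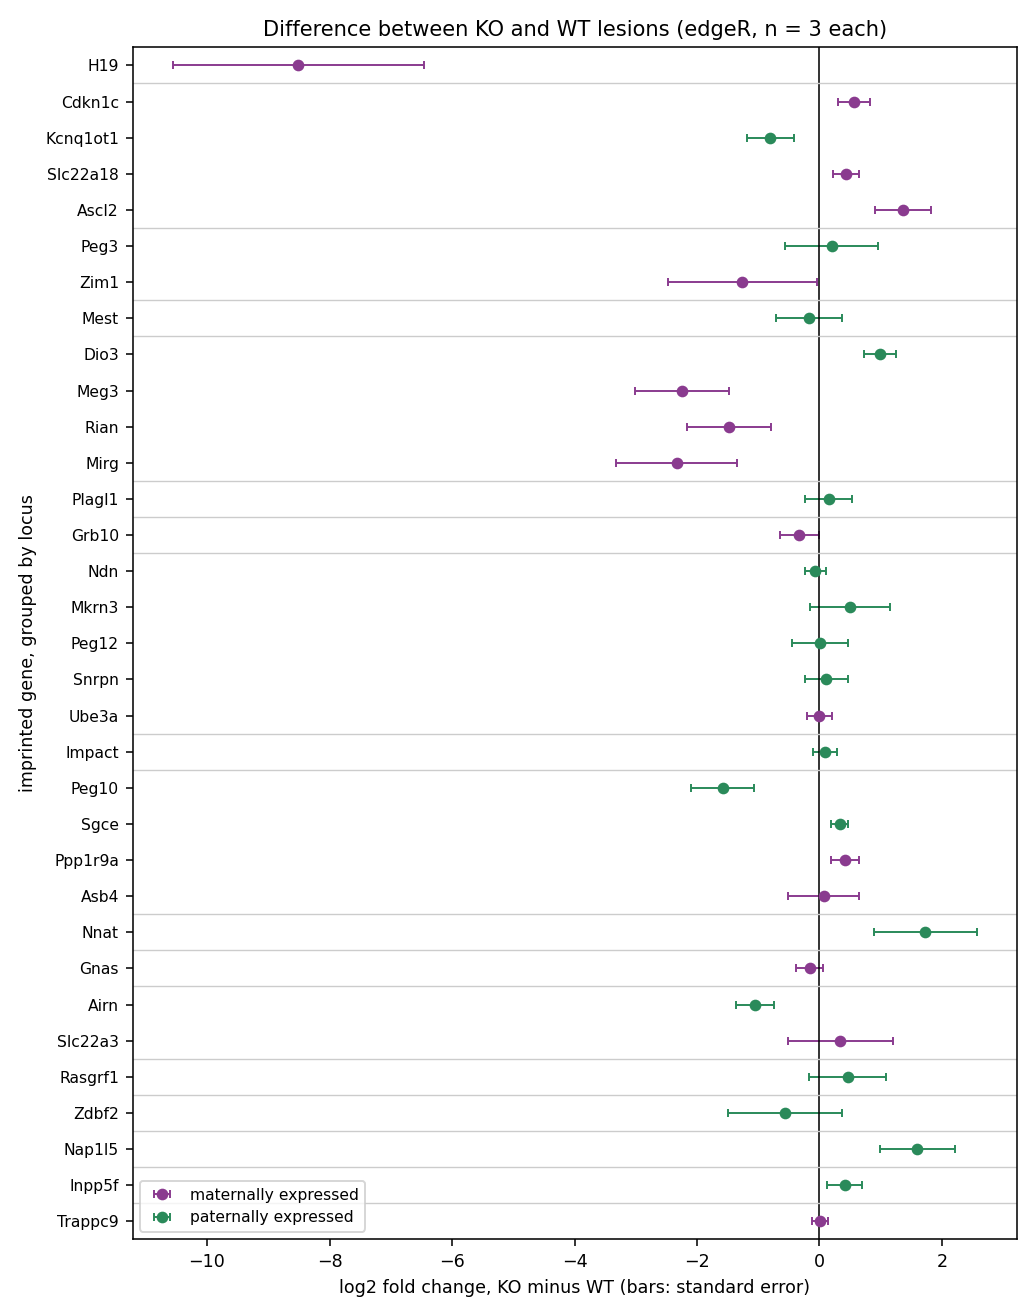
Log2 fold change, KO minus WT, of the 33 tested imprinted genes from edgeR (points) with the standard error (bars), ordered by locus and coloured by the parental copy known to be expressed. Members of 1 locus lie on both sides of 0 at Dlk1-Dio3 and at Peg10-Sgce, and the estimate for H19, −8.51, lies far below the rest.

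The Dlk1-Dio3 locus on chromosome 12 held genes on both sides of 0. It encodes 3 proteins from the paternal copy, and from the maternal copy a chain of long non-coding RNAs. Dio3 (chr12:110279068-110281097), the deiodinase that inactivates thyroid hormone, was measured at 4.44, 4.14 and 4.61 CPM in the WT lesions and at 10.2, 6.02 and 9.88 in the KO lesions. The WT lesions were nearly equal, and the lowest KO lesion was above them all. The means were 4.40 ± 0.239 and 8.71 ± 2.34 CPM (SD, n = 3 each), a log2 fold change of 0.99 (SE 0.26) with an adjusted p of 0.321 in edgeR and 0.0188 in DESeq2. The 16 alternative analyses gave it between 0.86 and 1.20.

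The maternally expressed RNAs of this locus had estimates below 0, and KO3 came close to WT for Meg3 and Rian. Rian (chr12:109603940-109661716), which hosts small nucleolar RNAs, was measured at 16.4, 21.8 and 16.7 CPM in the WT lesions and at 2.77, 2.90 and 14.1 in the KO lesions. KO1 and KO2 were far below the WT lesions, while KO3 came close to them without reaching the lowest. Meg3 (chr12:109541001-109571726), a long non-coding RNA, was measured at 2.39, 5.13 and 1.26 CPM in the WT lesions and at 0.281, 0.397 and 1.17 in the KO lesions. Again KO3 was the highest KO lesion, and it lay just under WT3. Mirg (chr12:109729764-109749460), which hosts a microRNA cluster, had 16, 20 and 11 counts in WT and 2, 0 and 8 in KO.

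All 3 estimates were below 0 and had unadjusted p-values on either side of 0.05. The log2 fold change was −2.25 (SE 0.77, adjusted p = 0.328, edgeR) for Meg3, −1.48 (SE 0.69, adjusted p = 0.363, edgeR) for Rian and −2.33 (SE 0.99, adjusted p = 0.344, edgeR) for Mirg. Without KO3 the estimates were −3.10, −2.69 and −4.04, and all 3 then passed the study's threshold. Without KO1 they were −1.90, −1.10 and −2.01, and without KO2 −2.01, −1.12 and −1.76, and in both cases none of the 3 passed it. In KO3 the summed endothelial level was 728 CPM, against 366 and 267 CPM in KO1 and KO2 and 562 to 684 CPM in WT. The summed adipocyte level in KO3 was 5132 CPM, against 752 and 1174 CPM in the other KO lesions, and the part of these cell types in the values was not tested.

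The ratio of 2 genes of 1 locus within a library does not depend on library scaling. Counts of Rian over counts of Dio3 came to 3.70, 5.26 and 3.63 in WT and to 0.271, 0.482 and 1.43 in KO. Since Rian was lower and Dio3 higher in every KO lesion, these ratios could not overlap, and their separation adds no evidence. KO3 was nearest to WT. The ratio of Meg3 to Rian, between 0.0753 and 0.236, overlapped between the groups. Dlk1, a Notch-family ligand that keeps precursor cells from differentiating, was too low to be tested, with 48, 2 and 42 counts in WT and 2, 6 and 6 in KO. It was thus seen mainly in WT1 and WT3, the lesions with skeletal muscle transcripts. Rtl1, a retrotransposon-derived protein whose exons are overlapped by microRNAs of the other strand, had at most 4 counts.

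**Figure D3:**
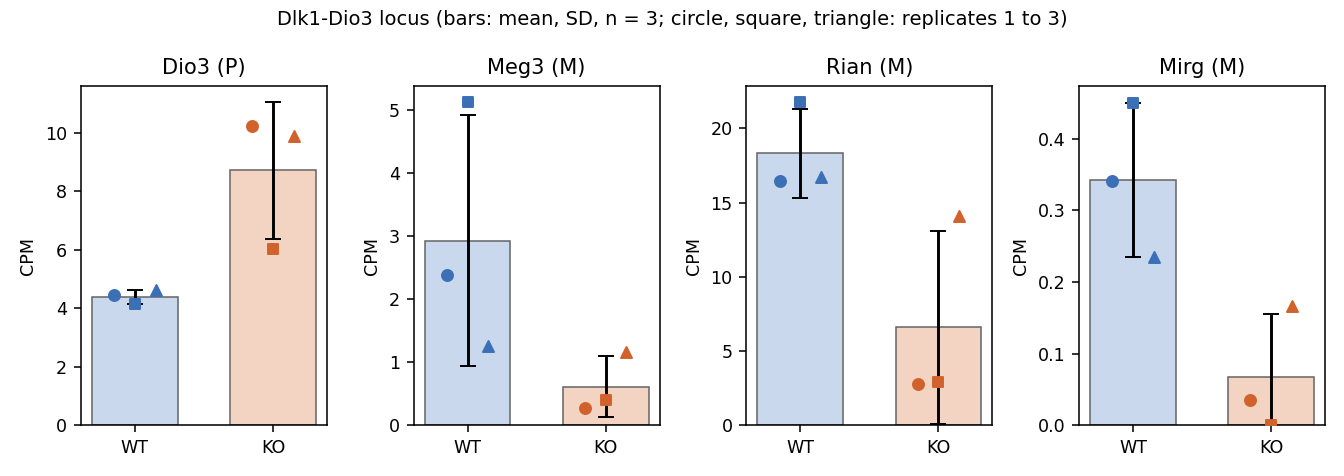
CPM of 4 genes of the Dlk1-Dio3 locus in WT and KO lesions (points, with symbols for replicates 1 to 3; bars are means and error bars SD, n = 3). Dio3, from the paternal copy (P), is higher in all KO lesions, and Meg3, Rian and Mirg, from the maternal copy (M), are lower in all of them, with KO3 (triangle) at 14.1 CPM of Rian near the WT lesions.

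H19 (chr7:142575529-142578143, minus strand), a maternally expressed long non-coding RNA that hosts miR-675, had the lowest estimate of all members. It was measured at 3094, 11.9 and 2723 CPM in the WT lesions and at 3.05, 3.50 and 9.48 in the KO lesions. WT1 and WT3 stood far above the other lesions, and WT2 was only just above KO3. H19 took 0.294% of all counts in WT1 and 0.258% in WT3, against 0.00116% in WT2.

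H19 is known to be abundant in fetal and regenerating muscle. WT1 and WT3 were the lesions with skeletal muscle fibre transcripts, and in the other 4 lesions those 8 genes summed to 14.1 CPM or less. A list of 8 satellite and regenerating fibre genes summed to 223, 51.5 and 66.7 CPM in WT1, WT2 and WT3, and to at most 7.13 CPM in KO. In WT2 that sum was nearly all Chrna1, at 51.4 CPM. The part of muscle in the H19 values was not tested. The log2 fold change was −8.51 (SE 2.05), with an adjusted p of 0.321 in edgeR and 4.26e-08 in DESeq2. Without WT1 and WT3 it was −1.16 with an adjusted p of 0.564 in edgeR, where the lone WT lesion was assumed to vary like the KO lesions. Igf2, the paternally expressed growth factor next to H19, followed the same lesions, with 5.72, 0.315 and 4.25 CPM in the WT lesions against 0.0351, 0.0596 and 0.250 in the KO lesions. Igf2 had an estimate of −4.89 (SE 1.29, adjusted p = 0.321, edgeR), or −1.46 without WT1 and WT3. The KO counts of Igf2 were 2, 3 and 12, so its level there rests on few reads.

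**Figure D4:**
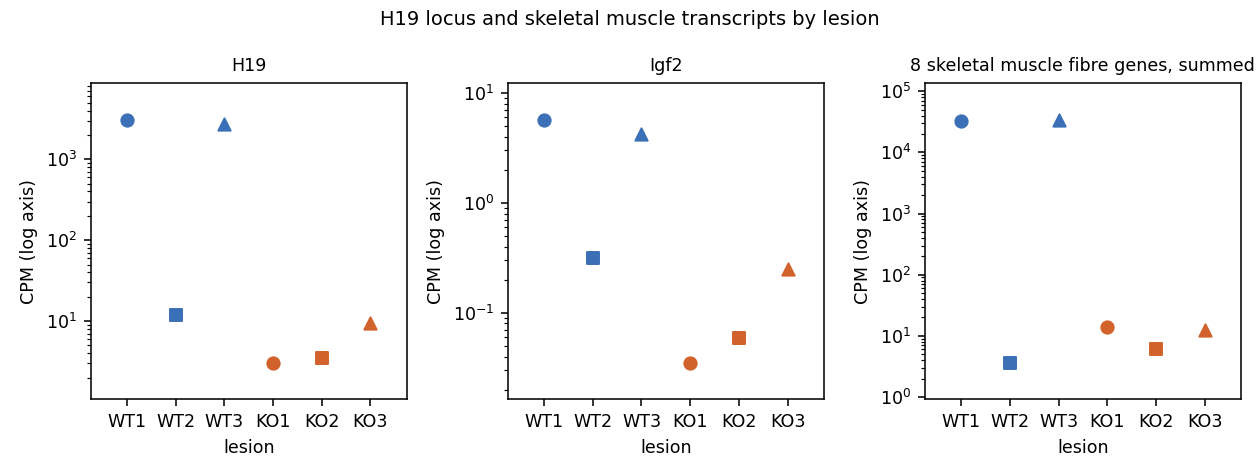
CPM on a log axis, per lesion, for H19, for Igf2 and for the sum of 8 skeletal muscle fibre genes, WT in blue and KO in orange. WT1 and WT3 are the highest in all 3 panels, with muscle sums of 32406 and 34376 CPM, and WT2 lies beside the KO lesions in muscle transcripts.

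The Peg10-Sgce pair gave opposite estimates from starts 99 bases apart on opposite strands. Both genes are expressed from the paternal copy. Peg10 (chr6:4747306-4760517), a retrotransposon-derived capsid protein needed in placenta, was measured at 45.3, 43.6 and 142 CPM in the WT lesions and at 24.8, 22.3 and 30.0 in the KO lesions. WT3 was far above the rest, and WT1 and WT2 also lay above every KO lesion. Sgce (chr6:4674350-4747207), epsilon-sarcoglycan of the cell membrane, was measured at 39.5, 36.2 and 48.1 CPM in the WT lesions and at 54.8, 51.6 and 49.5 in the KO lesions. Here every KO lesion was above every WT lesion, though KO3 exceeded WT3 by little.

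The log2 fold change of Peg10 was −1.58 (SE 0.51), with an adjusted p of 0.328 in edgeR and 0.0489 in DESeq2. It was −0.81 without WT3, the lesion with pancreatic transcripts, and then fell short of the study's threshold. Sgce had 0.33 (SE 0.14, adjusted p = 0.35, edgeR). Counts of Peg10 over counts of Sgce came to 1.15, 1.21 and 2.95 in WT and 0.452, 0.432 and 0.607 in KO. Since Peg10 was lower and Sgce higher in every KO lesion, this ratio had to separate the groups and adds no evidence. The other genes of the locus, Ppp1r9a (an actin-binding phosphatase subunit) and Asb4 (a ubiquitin ligase receptor), are maternally expressed in some tissues and overlapped between groups. Ppp1r9a ranged from 12.7 to 25.5 CPM over the 6 lesions (log2 fold change 0.41, SE 0.23) and Asb4 from 3.47 CPM in WT2 to 19.6 CPM in WT1 (0.07, SE 0.58).

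Airn, the antisense RNA that silences Igf2r on the paternal copy, was lower in KO together with its target. Airn (chr17:12741311-12860136) was measured at 4.78, 2.95 and 4.59 CPM in the WT lesions and at 1.56, 1.99 and 2.38 in the KO lesions. WT2 was the lowest WT lesion and still above KO3, the highest KO lesion. The log2 fold change was −1.06 (SE 0.31), with an adjusted p of 0.321 in edgeR and 0.024 in DESeq2, and it lay between −1.33 and, without WT1 and WT3, −0.60 over the alternatives. Igf2r, the receptor that takes IGF2 to lysosomes, had 175, 160 and 131 CPM in the WT lesions against 106, 93.2 and 127 in the KO lesions.

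Igf2r was also lower in every KO lesion, with KO3 close to WT3 (log2 fold change −0.51, SE 0.18, adjusted p = 0.328, edgeR). The ratio of Airn to Igf2r counts overlapped between the groups, from 0.0147 to 0.0350. Airn starts inside Igf2r on the other strand, and whether the counting used strand is not given in the sources used here, so reads of the pair may be mixed. Slc22a3, an organic cation transporter that Airn silences in placenta, was measured at 6.68, 9.95 and 3.55 CPM in the WT lesions and at 1.65, 5.66 and 18.3 in the KO lesions. KO1 was the lowest and KO3 the highest of the 6, and the estimate of 0.34 (SE 0.86) turned below 0 in 4 of 16 alternatives.

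**Figure D5:**
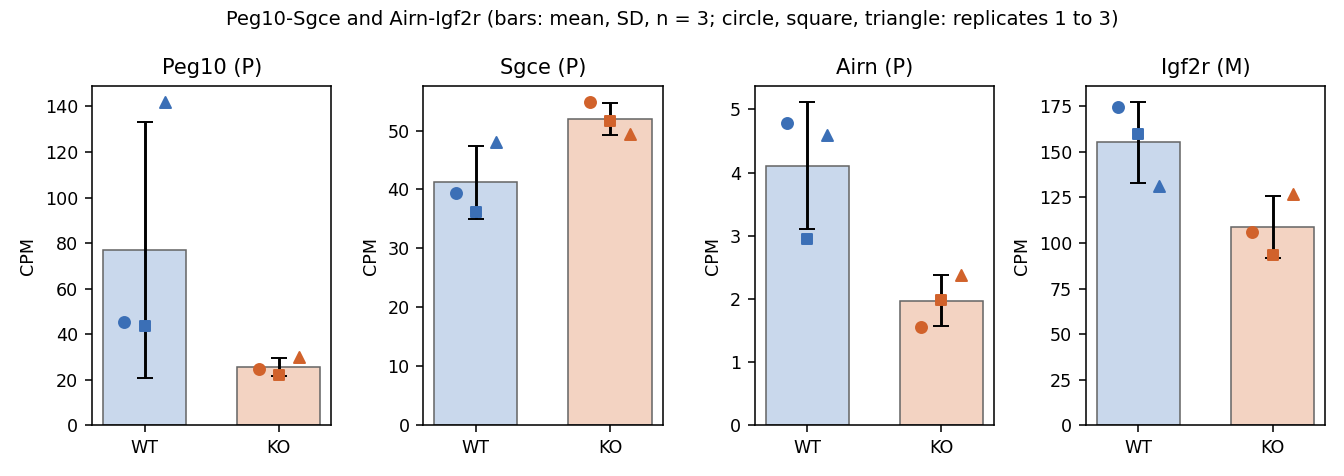
CPM of Peg10 and Sgce, and of Airn and Igf2r, in WT and KO lesions (points, with symbols for replicates 1 to 3; bars are means and error bars SD, n = 3; P paternally, M maternally expressed). The 142 CPM of Peg10 in WT3 (triangle) widen the WT spread, while Sgce lies between 49.5 and 54.8 CPM in KO, above all WT lesions.

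At the Kcnq1ot1 locus of distal chromosome 7 the 3 tested maternally expressed members had estimates above 0. Cdkn1c, the cell cycle inhibitor p57, was measured at 10.1, 7.23 and 11.2 CPM in the WT lesions and at 10.7, 14.3 and 17.3 in the KO lesions. WT3 lay above KO1, so the groups overlapped (log2 fold change 0.57, SE 0.26, adjusted p = 0.358, edgeR). An antisense transcript overlaps 30.7% of the exon bases of Cdkn1c. Slc22a18, a transporter-like protein, had 5.12, 6.66 and 6.58 CPM in the WT lesions against 7.46, 9.79 and 7.50 in the KO lesions, without overlap (0.43, SE 0.21, adjusted p = 0.377, edgeR).

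Ascl2, a transcription factor of trophoblast and intestinal stem cells, was low everywhere. It had 4, 8 and 8 counts in WT and 20, 14 and 24 in KO, or 0.145 ± 0.0522 and 0.376 ± 0.113 CPM (SD, n = 3 each). Every KO lesion was above every WT lesion (log2 fold change 1.36, SE 0.46, adjusted p = 0.328, edgeR), and the gene was no longer tested once counts were halved. Of 8 placental marker genes, 4 were at 0 in all 6 lesions, and the sum of the list was 0.135 to 0.427 CPM in WT and 0.542 to 1.65 CPM in KO. In KO that sum was mostly Psg17, a placental glycoprotein gene higher in every KO lesion (log2 fold change 2.37, SE 0.84, adjusted p = 0.328, edgeR). The part of such transcripts in the Ascl2 values was not tested.

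Kcnq1ot1 is the long antisense RNA that silences genes of this locus on the paternal copy, Ascl2 only in placenta. It was measured at 2.13, 1.98 and 1.03 CPM in the WT lesions and at 0.842, 1.27 and 0.834 in the KO lesions. KO2 lay above WT3, and the estimate was −0.80 (SE 0.39, adjusted p = 0.375, edgeR). Kcnq1, the potassium channel gene in which it lies, had 11.4, 5.49 and 12.2 CPM in the WT lesions against 37.3, 35.6 and 13.9 in the KO lesions. KO1 and KO2 were several times above WT, and KO3 only just above it (log2 fold change 1.58, SE 0.48, adjusted p = 0.325 in edgeR and 0.0399 in DESeq2). Other tested maternally expressed genes of this stretch of chromosome 7 differed in direction. Tspan32, Tssc4, Nap1l4 and Tnfrsf23 had estimates of −1.43, −0.14, −0.11 and −1.74, and Cd81 and Osbpl5 had 0.27 and 0.15. The part of Kcnq1ot1 in these values was not tested. Phlda2, which limits placental growth, had 0 to 8 counts per library and was not tested.

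Nap1l5, a paternally expressed nucleosome assembly protein-like gene inside an intron of Herc3, was measured at 0.512, 0.405 and 0.384 CPM in the WT lesions and at 0.877, 2.50 and 0.583 in the KO lesions. The WT lesions lay close together and below every KO lesion, and KO2 was far above the other KO lesions. The log2 fold change was 1.60 (SE 0.61, adjusted p = 0.332, edgeR), and it was 0.75 without KO2, when the gene fell short of the study's threshold. Nnat, a small membrane protein of the endoplasmic reticulum, was measured at 14.3, 15.5 and 8.52 CPM in the WT lesions and at 8.28, 26.9 and 91.5 in the KO lesions. Its high mean in KO came from KO3 and less from KO2, while KO1 was the lowest lesion of all. The estimate of 1.73 (SE 0.84, adjusted p = 0.371, edgeR) was 0.46 without KO3.

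Several genes were highest or lowest in the same KO lesion. KO3 was the highest KO lesion for 20 of the 33 tested members, against 37.7% of all genes, and KO1 was the lowest for 18, against 26.6%. Peg3, a zinc finger protein of the imprinted growth network, was measured at 32.9, 12.97 and 16.8 CPM in the WT lesions and at 7.61, 13.1 and 51.5 in the KO lesions. Mest, a hydrolase-fold protein of mesoderm, had 10.5, 8.78 and 12.6 CPM in the WT lesions against 4.49, 5.96 and 17.8 in the KO lesions. In both genes KO3 was the highest of the 6 lesions and KO1 the lowest, and the estimates of 0.20 and −0.17 were small beside their errors of 0.76 and 0.54.

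Grb10, the adaptor that dampens insulin receptor signalling, was also highest in KO3, with KO2 and not KO1 the lowest. It had 107, 117 and 106 CPM in the WT lesions against 65.5, 62.3 and 135 in the KO lesions. KO1 and KO2 were well below all WT lesions and KO3 was above them (log2 fold change −0.33, SE 0.32). Zim1, the maternally expressed neighbour of Peg3, had 2.97, 0.765 and 3.84 CPM in the WT lesions against 0.123, 0.278 and 2.77 in the KO lesions. Here WT2 and 2 KO lesions were low and the estimate of −1.26 (SE 1.22) turned to 0.47 without WT1 and WT3. Without KO3, 8 of 34 tested members passed the study's threshold as lower in KO, against 8.66% of all genes in that analysis, adding Zim1, Mest, Mirg and Rian to the 4 above.

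Zdbf2, a zinc finger protein imprinted from the early embryo on, had 5.29, 1.40 and 1.41 CPM in the WT lesions against 0.456, 3.93 and 1.08 in the KO lesions. WT1 and KO2 stood above the rest, and the estimate of −0.57 (SE 0.93) turned to 0.38 without WT1. Plagl1, a zinc finger transcription factor of the same growth network, had 15.2, 10.6 and 24.1 CPM in the WT lesions against 12.0, 19.5 and 23.8 in the KO lesions. Its groups overlapped, with an estimate of 0.15 (SE 0.38).

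The genes of the Snrpn locus, the region of Prader-Willi and Angelman syndromes, showed small estimates. Ube3a, a ubiquitin ligase imprinted in neurons, was measured at 132, 90.9 and 134 CPM in the WT lesions and at 103, 132 and 123 in the KO lesions (log2 fold change 0.00, SE 0.20). Ndn, the MAGE protein necdin, had 20.2, 16.7 and 17.7 CPM in the WT lesions against 17.5, 14.4 and 19.9 in the KO lesions, with −0.07 (SE 0.17). Both genes overlapped between groups and varied by less than 1.5 times over the 6 lesions. Snrpn (a spliceosome protein), Mkrn3 (a ubiquitin ligase) and Peg12 (of the Wnt pathway) had estimates of 0.11, 0.50 and 0.01. Snrpn shares exon bases with Snurf on the same strand, so part of its reads may have been lost or shared. Magel2 had no read in any library, which allows at most 0.0526 to 0.0674 CPM.

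The other members also differed by less than their error allows to call. Gnas, the stimulatory G protein alpha subunit, had 970, 612 and 891 CPM in the WT lesions against 694, 713 and 806 in the KO lesions (log2 fold change −0.16, SE 0.22). Trappc9, of a vesicle tethering complex, had 34.8, 35.4 and 31.9 CPM in the WT lesions against 35.3, 30.3 and 37.3 in the KO lesions, with 0.01 (SE 0.13). Impact, an inhibitor of the kinase GCN2, had 33.9, 39.3 and 36.6 CPM in the WT lesions against 35.9, 30.9 and 49.9 in the KO lesions, with 0.09 (SE 0.20). In all 3 genes the groups overlapped. Inpp5f, an inositol phosphatase, had 12.8, 16.9 and 14.2 CPM in the WT lesions against 13.5, 27.7 and 17.0 in the KO lesions, with 0.41 (SE 0.29). Rasgrf1, an activator of Ras, had 0.256, 0.675 and 0.598 CPM in the WT lesions against 0.982, 0.874 and 0.250 in the KO lesions, with 0.46 (SE 0.63). KO2 was the highest lesion for Inpp5f, and both groups overlapped for Rasgrf1, which was low throughout. Kcnk9, a potassium channel of brain, had 4 counts in WT3 and 2 in KO2 only, and Usp29, a ubiquitin peptidase, had 14, 2 and 2 counts in WT and none in KO.

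Levels between genes compare only per length of exon. By mean CPM per kilobase of exon, the highest members in KO were Gnas at 66.0, Nnat at 23.1, Grb10 at 9.62, Impact at 7.59, Cdkn1c at 6.91 and Ube3a at 5.80. In WT H19 came first at 790, through WT1 and WT3, before Gnas at 73.7, Grb10 at 12.1, Peg10 at 11.5 and Impact at 7.14. Within KO, Nnat and Grb10 each varied by more than the gap to the next gene. The non-coding RNAs other than H19 ranged lower on this scale, with Airn at 1.14 in WT and 0.549 in KO and Rian at 1.00 and 0.361. Meg3 was at 0.162 and 0.0340, and Kcnq1ot1, a very long RNA, at 0.0184 and 0.0106.

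A further 44 imprinted genes were listed beside these. Of the 35 tested, 14 were higher and 21 lower in KO by point estimate, with a median of −0.11. By parental copy, the 10 paternally expressed ones split into 1 higher and 9 lower (median −0.41), and the 25 maternally expressed ones into 13 higher and 12 lower (median 0.07). None had an adjusted p under 0.05 in edgeR. There 2 higher and 5 lower had an unadjusted p under 0.05, against 6.55% and 8.16% of all genes. DESeq2 gave an adjusted p under 0.05 to 1 higher and 2 lower, against 2.23% and 4.04% of all genes. By the study's threshold Kcnq1 was higher, and Igf2, Tnfrsf23 and Slc38a4 were lower, against 3.1% and 5.85% of all genes. Tnfrsf23, a decoy receptor for TRAIL beside the Kcnq1ot1 locus, had 28.1, 94.7 and 32.5 CPM in the WT lesions against 12.4, 9.26 and 24.9 in the KO lesions (log2 fold change −1.74, SE 0.61, adjusted p = 0.328, edgeR). WT2 stood far above the rest, and every KO lesion was below WT. Slc38a4, an amino acid transporter, had 23.4, 6.03 and 36.4 CPM in the WT lesions against 2.35, 3.62 and 8.71 in the KO lesions (−2.16, SE 0.78, adjusted p = 0.328, edgeR). Its groups overlapped, and the estimate was −0.31 without WT1 and WT3, the lesions where it was highest.

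Of 17 genes that write, copy, protect or remove DNA methylation at imprints or act with it on chromatin, all 17 were tested, 10 higher and 7 lower in KO, with a median log2 fold change of 0.12. Dnmt1, which copies the marks, had an estimate of 0.16 (SE 0.15), Dnmt3b 0.30 (SE 0.27), Uhrf1 0.54 (SE 0.34) and Zfp57 0.00 (SE 0.34). Trim28, the co-repressor recruited by ZFP57, had 120, 108 and 123 CPM in the WT lesions against 170, 157 and 133 in the KO lesions. Its KO lesions were all above WT (0.39, SE 0.14, adjusted p = 0.328, edgeR). Apart from Dnmt3a and Trim28, no gene of this list had an unadjusted p under 0.05 in edgeR.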

How the data were processed

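The deposited values were raw counts per gene. Per the labels, the authors prepared stranded poly-A libraries, trimmed reads with Trimmomatic, counted with featureCounts and used DESeq2 on GRCm39, whereas the study's methods name GRCm38. The aligner and the strand setting of the counting are not given in the sources used here. Ensembl IDs were matched without version to GENCODE M21 (GRCm38), 51948 of 56884 IDs, and gene coordinates are those of GRCm38. IDs without a symbol held 3.04% to 3.56% of counts.

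Libraries held 45370342 to 57239184 counts. Genes passing filterByExpr were fitted with TMM scaling and a term for genotype in edgeR 4.0.16 (R 4.3.3) by quasi-likelihood, with Benjamini-Hochberg adjustment over all 18177 genes. The standard error is the log2 fold change divided by the root of F. DESeq2 1.42.0 and limma 3.58.1 on the same genes were alternatives, and 613 genes without an adjusted p in DESeq2 were left out of its counts. Members and lists were chosen with earlier results of these data known. Members were named with every lesion's value where the unadjusted p was under 0.05, where groups did not overlap or the highest lesion was at least 8 times the lowest at a mean of at least 1 CPM, or where they were the 2 highest of a locus by mean CPM. Others were given by range, or by counts where low, and Mirg and Kcnq1ot1 were added to complete their loci, as were genes of known role beside a member such as Igf2r and Dnmt1, after values were seen. Alternatives changed the scaling, the filter, the test, the prior, the pairing, or the lesions entered. The statistic was tested on simulated data with known changes. Same-numbered WT and KO lesions did not deviate together (correlations 0.0318, -0.152 and -0.201), so replicate numbers were not used as pairs. Nothing says that lesions within a group shared or did not share a batch, and p-values measure only the spread between these samples.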

Additional observations from a re-analysis of the deposited data

How the results depend on the processing

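Up to 16 alternatives were run for 21 named genes, 14 for Ascl2, Mirg and Igf2 and 15 for Zim1, and 18 of the 21 kept their direction in those run. Zim1 turned to 0.47 and Zdbf2 to 0.37 without WT1 and WT3, and Zdbf2 ranged from −1.81 to 0.38 when single lesions were left out. Slc22a3 turned to −0.22 without WT1 and WT3, −0.54 in limma and −0.26 with the replicate number as a block, and ranged from −0.88 to 0.84 when single lesions were left out. The log2 fold change of Dnmt3a was −0.58 in DESeq2, where it passed an adjusted p of 0.05. By the study's threshold 2 members were higher in KO, against 3.1% of all genes. The number was 1 with a minimum of 10 counts in every library (2.63% of all genes) and 1 with no filter on low counts (2.61%). It was 1 with halved counts (2.83%, chosen after seeing the data) and 0 with the replicate block (2.05%). It was 3 in DESeq2 (with Nnat, 3.77%) and 3 with upper quartile scaling (with Dio3, 3.94%). That count ranged from 0 to 2 when single lesions were left out. The 4 members lower, against 5.85% of all genes, became 7 in limma (8.38%), 6 in DESeq2 (7.43%) and 6 with no filter (5.45%). Their number ranged from 1 without KO1 (H19, against 2.9% of all genes) to 8 without KO3 (8.66%). Members with an adjusted p under 0.05 numbered 0 in edgeR, 4 in DESeq2, and 0 to 1 when single lesions were left out, the 1 being H19 without WT2. The median of maternally expressed members, 0.00, was −1.86 over the broadly imprinted ones alone. The replicate block gave 1400 genes with an unadjusted p under 0.05 and 0 with an adjusted p under 0.05 in edgeR, where members had no adjusted call to change. At the study's threshold it kept 4 members lower (3.15% of all genes), with Rian in place of Meg3. Causes were not tested. Depth limits Ascl2, Mirg, Phlda2, Dlk1, Rtl1, Usp29, Kcnk9 and Magel2, whose counts were low in most or all libraries.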

Other observations

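Ins2, an insulin gene that is imprinted in the yolk sac, was read in WT3 at 6.71 CPM, with 0.0397 CPM in KO2 and no read in the other 4 lesions. WT3 was also the lesion with pancreatic acinar transcripts, 5934 CPM over 8 genes. Calcr, the calcitonin receptor gene at the Peg10-Sgce locus, had 0.128 to 0.171 CPM in WT and no read in any KO lesion, too few to be tested. Counts of H19 over counts of Acta1, the actin of skeletal muscle, came to 0.269 in WT1 and 0.257 in WT3, and to 0.236, 0.710 and 0.849 in KO1, KO2 and KO3. WT2 stood apart with a ratio of 10.98. Counts of Peg3 over counts of its maternally expressed neighbour Zim1 came to 11.1, 16.9 and 4.38 in WT and to 62, 47.1 and 18.6 in KO, so every KO lesion was above every WT lesion, although neither gene on its own separated the groups.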
